A study of Mus musculus with 6 samples.

Results

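The genes described here are the mouse interferons and interferon receptor chains read on a NanoString immune panel: the type I ligands Ifna1, Ifna2, Ifna4 and Ifnb1, the type II ligand Ifng, the type I receptor chains Ifnar1 and Ifnar2, and the type II receptor chain Ifngr1. They were chosen by name, and values were at hand for 8 of 9 names looked for among 750 endogenous genes, while the other type II receptor chain, Ifngr2, was not analysed here. RNA came from tumors that BNL-MEA mouse liver cancer cells formed in the livers of male BALB/c mice, injected at 6 to 7 weeks of age. In 3 samples the cells carried a PD-L1 plasmid, and in 3 samples they carried the empty plasmid. Both kinds of cells were stable transfectants kept under G418, so the controls share the transfection, the drug selection and the site of growth. The labels name neither the number of clones per plasmid nor the mouse behind each sample, so PD-L1 itself and the clone used cannot be told apart. The p-values therefore reflect the variation among these 6 samples alone, part of which may be technical. The description of the empty plasmid samples also mentions clones expressing PD-L1, and the groups rest on the titles and the treatment labels. Cd274, the gene for PD-L1, differed by -0.76 on the log2 scale, group labelled PD-L1 minus group labelled empty plasmid (adjusted p = 0.557, limma), and therefore the groups are named by their labels throughout, with the tumors numbered by replicate.

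Interferons are secreted proteins that warn cells of infection and direct immune responses. Type I interferons, the alpha family and interferon beta, are made by many cells after viral or other nucleic acid is sensed, and they all bind 1 receptor built from the chains IFNAR1 and IFNAR2. Interferon gamma is made mainly by T cells and natural killer cells and binds a separate receptor built from IFNGR1 and IFNGR2. Both receptors signal through Janus kinases and STAT factors, and in tumors interferon gamma is a known inducer of PD-L1 itself.

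Values are given as deposited, on the log2 scale, and as the molecule counts that could be recovered from them. The samples held 1009717 to 1894819 recovered counts over the 770 endogenous and reference genes. The 8 negative control probes, which have no target in the sample, held 72 to 109 counts in all per sample, and their mean log2 value was 2.98 ± 0.30 in the group labelled PD-L1 and 2.98 ± 0.56 in the group labelled empty plasmid (SD, n = 3 each). A gene counted as above background in a sample when it reached that sample's own negative control mean plus 2 SD on the log2 scale, a limit of 3.88 to 5.44. For testing, a gene's mean over the 6 samples had to reach the same limit pooled over all samples, 4.66, which kept 541 genes. By recovered counts no pair of replicates agreed within counting noise, the lowest chi-square per degree of freedom being 199.2.

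The members split into 2 kinds. All 3 receptor chains were above background in 6 of 6 samples, with at least 918 counts in each. The 5 ligands were at or near background: of their 30 readings, 2 reached the sample's own limit and 6 exceeded its highest negative control. All 5 ligands had a mean under the pooled limit and were left out of the test, so of the 8 members 3 were tested. Across the whole comparison limma called 0 of 541 tested genes (0%) at an adjusted p under 0.05, and 92 (17%) had an unadjusted p under 0.05.

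Among the 5 ligands Ifna1, an alpha interferon, stood clearest of the negative controls, and it did so in the group labelled PD-L1. Its recovered counts were 45, 29 and 37 in PD-L1-labelled tumors 1 to 3, where the highest negative controls held 19, 25 and 18. In empty-plasmid tumors 1 to 3 they were 15, 12 and 14, where the highest negative controls held 17, 23 and 21. Every sample labelled PD-L1 thus exceeded its highest negative control, no sample labelled empty plasmid did, and the groups did not overlap. The exact Poisson 95% intervals, which cover counting error only, ran from 19.4 to 41.6 for the lowest count labelled PD-L1 and from 8.40 to 24.7 for the highest count labelled empty plasmid, so the intervals of these nearest samples overlapped. As log2 values Ifna1 stood at 5.08, 4.63 and 4.96 in PD-L1-labelled tumors 1 to 3 and at 3.18, 3.75 and 2.89 in empty-plasmid tumors 1 to 3. Against the stricter limit of mean plus 2 SD, replicates 1 and 3 labelled PD-L1 were above background and replicate 2, at 4.63 against a limit of 5.15, was not.

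The group means of Ifna1 were 4.89 ± 0.23 and 3.27 ± 0.44 (log2, SD, n = 3 each), a difference of 1.62, and the two-sided exact permutation test gave p = 0.1, the smallest that 3 against 3 samples can give. Because the group labelled empty plasmid was at background, the fold depends on the floor used for it. With each of its samples raised to its own background limit where lower, the group labelled PD-L1 was 1.37-fold higher by group means. The highest negative control as the floor gave 2.08-fold. PD-L1-labelled tumor 2 kept its value in both, though it was under its own limit. These folds leave out the variation among samples and are not lower bounds. When all 750 genes were fitted without a background limit, the estimate of 1.62 ± 0.36 (SE) had a 95% interval from 0.75 to 2.48, an unadjusted p of 0.00304 and an adjusted p of 0.253 (limma). It ranked 9 of 750 by p in that fit, where 119 genes (15.9%) had an unadjusted p under 0.05 and 0 (0%) an adjusted p under 0.05. Ifna1 therefore did not pass the test. Of the 209 genes under the background limit, 10 differed upward by at least as much as Ifna1. Over 17 alternative settings the difference of Ifna1 ran from 0.82, with a constant of 16 added to the linear values, to 3.89, with the negative controls subtracted. The groups stayed apart in each, but most of these settings could not have made them overlap. A changed fit or limit leaves the values as they are, an added constant keeps their order, and omitting a sample cannot join separate groups. Rescaling the samples and subtracting the controls could have.

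Ifna4, whose gene lies beside Ifna1 with 0 protein-coding genes between them in RefSeq's table, had the same order of groups at lower counts. Its counts were 27, 16 and 21 in PD-L1-labelled tumors 1 to 3 and 15, 9 and 13 in empty-plasmid tumors 1 to 3. Replicates 1 and 3 labelled PD-L1 exceeded their highest negative controls, and no sample of either group reached its own background limit. The log2 values were 4.35, 3.78 and 4.15 against 3.18, 3.34 and 2.79, without overlap (exact permutation p = 0.1). The difference of 0.99 had an unadjusted p of 0.024 and an adjusted p of 0.284 in the fit of all 750 genes (limma), and no fold is given because both groups were under the limit. After each sample's mean negative control value was subtracted on the log2 scale the groups overlapped (exact permutation p = 0.2). They also overlapped when the samples were scaled to the positive controls (difference 0.56).

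Ifna2 was at background in all samples. Its counts ran from 10 to 15 in the group labelled PD-L1 and from 11 to 14 in the other, each below its sample's highest negative control. The log2 means were 3.40 ± 0.40 and 3.17 ± 0.66 (SD, n = 3 each; exact permutation p = 0.7). Ifnb1, for interferon beta, had 14, 8 and 20 counts in PD-L1-labelled tumors 1 to 3 and 7, 7 and 12 in empty-plasmid tumors 1 to 3. Only the 20 counts of labelled PD-L1 replicate 3 exceeded that sample's highest negative control, of 18. The log2 means of Ifnb1 were 3.43 ± 0.64 and 2.59 ± 0.44, a difference of 0.84 with overlapping groups (exact permutation p = 0.2). Without PD-L1-labelled tumor 3 the difference was 0.51, and without tumor 2 of that group it was 1.15, with no overlap. Of the 5 ligands, 2 were higher in the group labelled PD-L1 without overlap, where 12.4% of the 209 genes under the background limit were, beside 7.66% that were lower without overlap and 20.1% in either direction.

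**Figure D1:**
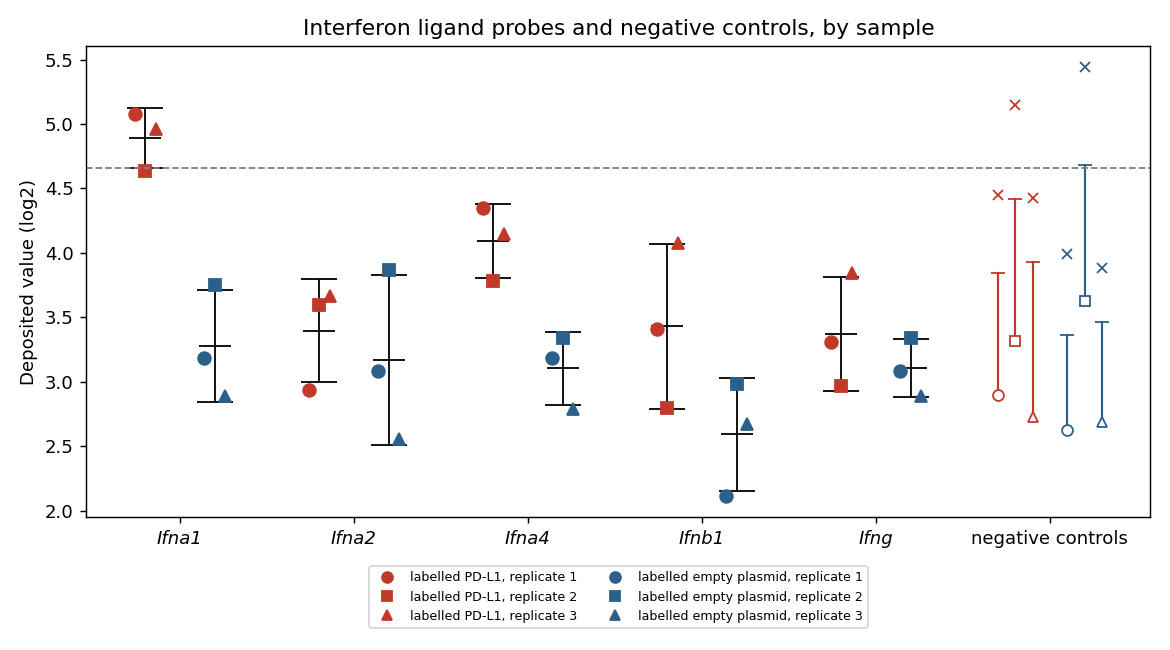
Deposited log2 values of the 5 interferon ligand probes in the 6 samples, with group means and SD (black, n = 3), beside the negative controls, for which an open symbol marks each sample's mean, the line runs up to its highest control and the cross marks its limit of mean plus 2 SD. The dashed line is the pooled limit of 4.66, which 2 Ifna1 readings, 5.08 and 4.96, exceed.

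**Figure D2:**
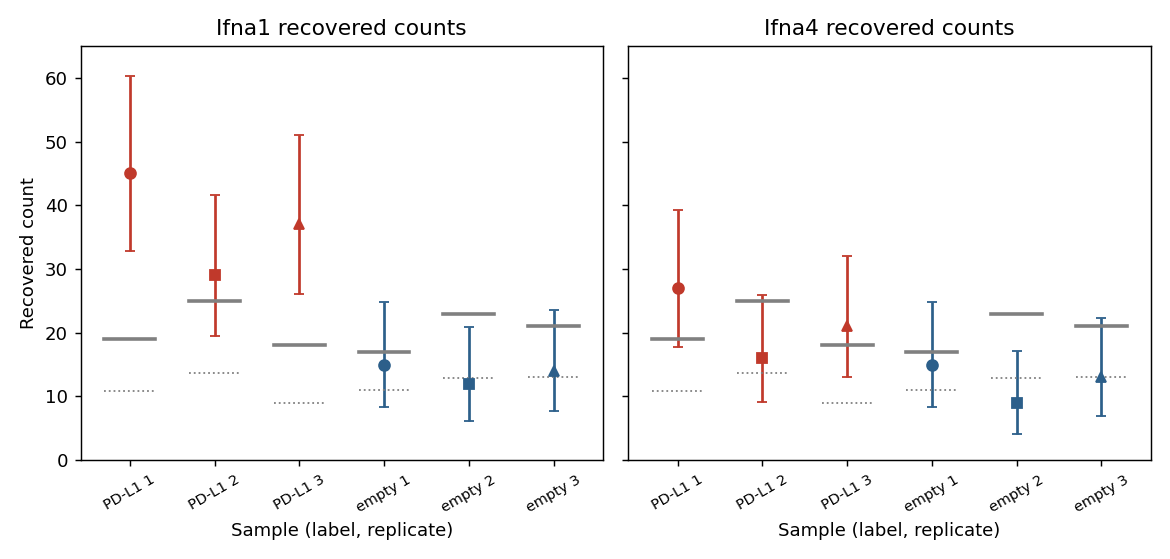
Recovered counts of Ifna1 (left) and Ifna4 (right) per sample with exact Poisson 95% intervals. Grey bars mark the highest and dotted lines the mean negative control count of each sample, and all 3 Ifna1 counts labelled PD-L1 lie above the grey bars.

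The alpha interferons are near copies of one another. RefSeq's table for GRCm38.p6 lists 13 protein-coding Ifna genes, all on chromosome 4, of which 3 were read here. The sources used here do not say where the probes bind, so reads from other Ifna genes in the Ifna1 or Ifna4 counts were not tested. The 250 bases before the annotated start of each type I ligand gene (RefSeq, GRCm38.p6) are shown because these genes are switched on by interferon regulatory factors that bind GAAA repeats there. Capitals mark the letters AANNGAAA, the core such factors are known to bind, searched on both strands.

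Ifna1, chr4:88849837-88850086, plus strand: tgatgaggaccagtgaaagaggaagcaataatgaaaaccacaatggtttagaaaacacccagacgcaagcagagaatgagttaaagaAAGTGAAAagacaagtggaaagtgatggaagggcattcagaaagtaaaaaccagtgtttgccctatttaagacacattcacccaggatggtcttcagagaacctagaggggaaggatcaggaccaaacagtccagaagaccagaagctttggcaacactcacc

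Ifna2, chr4:88683780-88684029, minus strand: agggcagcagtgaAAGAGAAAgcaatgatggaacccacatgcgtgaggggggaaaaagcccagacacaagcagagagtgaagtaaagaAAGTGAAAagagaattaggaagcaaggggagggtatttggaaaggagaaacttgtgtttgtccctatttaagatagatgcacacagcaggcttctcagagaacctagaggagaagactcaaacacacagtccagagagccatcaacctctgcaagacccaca

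Ifna4, chr4:88841566-88841815, plus strand: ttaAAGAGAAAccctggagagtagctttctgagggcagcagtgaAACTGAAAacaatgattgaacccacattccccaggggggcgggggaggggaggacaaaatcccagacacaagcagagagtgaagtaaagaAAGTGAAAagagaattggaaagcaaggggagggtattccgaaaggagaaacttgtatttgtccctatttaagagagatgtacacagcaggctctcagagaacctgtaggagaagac

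Ifnb1, chr4:88522795-88523044, minus strand: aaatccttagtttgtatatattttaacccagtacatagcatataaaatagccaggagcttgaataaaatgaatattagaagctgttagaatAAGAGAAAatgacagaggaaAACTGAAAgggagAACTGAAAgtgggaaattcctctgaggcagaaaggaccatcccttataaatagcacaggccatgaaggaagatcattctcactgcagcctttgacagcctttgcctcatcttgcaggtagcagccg

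The letters occurred in 1 place before Ifna1, in 2 before Ifna2 and in 3 each before Ifna4 and Ifnb1, all on the strand of the gene. These numbers depend on where each window was cut. The opening bases of the Ifna2 window recur in the Ifna4 window only after the first Ifna4 match. At least 1 match was present in 21.3% of the 32851 promoter windows of the same length, at least 2 in 4.2% and at least 3 in 0.849%. The longest run shared by the 3 alpha windows, taaagaAAGTGAAAaga, has 17 bases and holds a match. In pairwise alignment Ifna2 and Ifna4 were 85% identical, Ifna1 and Ifna2 73.9%, and Ifna1 and Ifna4 68.4%. Neither gene of the pair with the closest windows, Ifna2 and Ifna4, reached its own background limit in any sample. The part of these windows in the counts was not tested. A match describes these letters and not a bound site.

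Ifng, for interferon gamma, was not detectable above background in any sample. Its counts were 13, 9 and 17 in PD-L1-labelled tumors 1 to 3 and 14, 9 and 14 in empty-plasmid tumors 1 to 3, and each was below its sample's highest negative control. The summed counts, 39 and 37, lay beside 33.5 and 36.9 for an average negative control probe. The log2 means were 3.37 ± 0.44 and 3.11 ± 0.22 (SD, n = 3 each; exact permutation p = 0.5), with overlapping groups. Less Ifng RNA per cell and fewer cells that make it cannot be told apart in bulk tumor RNA.

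Markers of the cells known to make interferon gamma were mostly faint. Of 8 T cell markers 2, Cd3d and Cd3g, had a mean at or above the pooled limit, 0 were above the own limit in all 6 samples, and the summed linear level of the 8 ran from 122 to 193 in the group labelled PD-L1 and from 158 to 527 in the other. The defining marker Cd3e was under the pooled limit, with log2 values from 2.97 to 4.28 in the group labelled PD-L1 and from 4.07 to 6.35 in the other. Of the 8 T cell markers 2 were higher in the group labelled PD-L1, Cd4 by 0.14 and Cd2 by 0.34, and the rest were lower. Of 9 natural killer cell markers 5 were at or above the pooled limit, with sums of 289 to 992 and 367 to 847. Klra2 was the highest of the 9 in each sample, with mean log2 values of 7.69 in the group labelled PD-L1 and 8.22 in the other. It was thus the largest part of each sum, and which cells made it was not tested. Of these 5 tested markers 3 were lower and 2 higher in the group labelled PD-L1 (median -0.53). Over all 9 markers, however, 6 were higher in that group. Klra1, Klra7, Prf1 and Klrb1c, with means under the pooled limit, differed by 1.47, 2.02, 1.44 and 0.29. The list as a whole thus gave no single direction. The activating receptor gene Klrk1 differed by -1.20, the receptor genes Klrd1 by -0.60 and Klra2 by -0.53, while Ncr1, for another activating receptor, differed by 0.27 and the granule protease gene Gzma by 0.82 (log2; adjusted p from 0.291 to 0.749, limma). Gzma stood at 5.26, 5.20 and 7.54 in PD-L1-labelled tumors 1 to 3 and at 5.17, 5.20 and 5.17 in the others. Labelled PD-L1 replicate 3, which was highest for Gzma, also held the highest Ifng count, 17, but at 9 to 17 counts the probe cannot rank the samples.

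For plasmacytoid dendritic cells, a known source of alpha interferon, 3 of 6 fixed markers were read. Bst2, which many other cells also make in response to interferon, ran from 10.95 to 11.89 in the group labelled PD-L1 and from 11.89 to 12.52 in the other, and Ccr9 was under the pooled limit. The summed level of the 3 was 2317 to 4204 in the group labelled PD-L1, where Ifna1 was higher, and 4146 to 6215 in the other. That sum is mostly Bst2, and the other 2 markers did not follow it, with differences of -0.05 for the factor gene Irf8 and 0.25 for Ccr9. The summed macrophage markers, 7 of 7 above the limit, were 26824 to 45379 and 17475 to 27628. Of the 7, 6 were higher in the group labelled PD-L1 (median 0.33) and 0 passed after adjustment. Mrc1 differed most, by 2.53, while Emr1 differed by -0.06, Csf1r by 0.14 and Cd14 by 0.18. The part of any of these cells in the Ifna1 values was not tested.

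The receptor chains were measured with far smaller counting error. Ifnar2, the chain that binds type I interferon most tightly and whose gene also yields a soluble form in mice, was lower in all 3 tumors labelled PD-L1. It read 9.96, 9.79 and 10.08 in PD-L1-labelled tumors 1 to 3 and 10.49, 10.73 and 10.47 in empty-plasmid tumors 1 to 3. The recovered counts were 1336, 1044 and 1295 against 2413, 1539 and 2732. Neither scale showed overlap, and the gap between the nearest samples on the log2 scale, 10.08 and 10.47, was larger than the SD of either group. The means were 9.95 ± 0.14 and 10.56 ± 0.15 (SD, n = 3 each). The groups thus differed by -0.62 ± 0.21 (SE), and the 95% interval ran from -1.13 to -0.10. Its unadjusted p was 0.0254 and its adjusted p 0.264 over 541 genes (limma), so Ifnar2 did not pass, and the exact permutation p was 0.1. Groups without overlap and lower in the group labelled PD-L1 were found for 9.8% of the 541 tested genes, and higher for 8.5%, so the separation of Ifnar2 alone is not unusual here. Its adjusted p ran from 0.251 to 0.823 over the alternatives, and its difference from -1.04, with the positive controls made equal, to -0.46.

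The hepatocyte markers differed between the groups in the direction of Ifnar2. All 12 tested markers were lower in the group labelled PD-L1, their median difference being -3.74 (log2), and 7 of them had an unadjusted p under 0.05 while 0 passed after adjustment (limma). Their summed linear level was 1184, 719 and 12006 in PD-L1-labelled tumors 1 to 3 and 6864, 86228 and 26717 in empty-plasmid tumors 1 to 3. The sum was highest in the sample with the highest Ifnar2 and lowest in the sample with the lowest, and the groups of sums overlapped through PD-L1-labelled tumor 3 and empty-plasmid tumor 1. The part of liver tissue in the Ifnar2 difference was not tested. Without labelled empty plasmid replicate 2 the difference was -0.53.

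Ifnar1, the partner chain, did not separate the groups. On the log2 scale it read 9.99, 9.98 and 10.06 in PD-L1-labelled tumors 1 to 3 and 10.32, 9.99 and 10.14 in empty-plasmid tumors 1 to 3. The groups overlapped through labelled empty plasmid replicate 2, and 5 of the 6 samples lay between 9.98 and 10.14. The difference was -0.14 ± 0.21 (SE, n = 3 per group), with a 95% interval from -0.64 to 0.36 and an adjusted p of 0.755 (limma).

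The log2 ratio of Ifnar2 to Ifnar1 within a sample does not depend on how samples were scaled, and only its change between samples is read. It was -0.03, -0.19 and 0.02 in PD-L1-labelled tumors 1 to 3 and 0.17, 0.75 and 0.33 in empty-plasmid tumors 1 to 3. All 3 samples labelled PD-L1 lay below all 3 others, with a difference of -0.48 (exact permutation p = 0.1). Labelled empty plasmid replicate 2 had the highest ratio, and without it the difference was -0.31.

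Ifngr1, the ligand-binding chain of the interferon gamma receptor, had a group difference smaller than its SD in either group. On the log2 scale it read 11.08, 11.30 and 10.97 in PD-L1-labelled tumors 1 to 3 and 11.21, 10.66 and 11.39 in empty-plasmid tumors 1 to 3. The lowest and the highest sample both carried the empty plasmid label, and the groups overlapped fully. The difference was 0.03 ± 0.27 (SE, n = 3 per group), with a 95% interval from -0.61 to 0.67 and an adjusted p of 0.949 (limma). The lowest sample, labelled empty plasmid replicate 2, also had the lowest summed macrophage markers, 17475, and the highest hepatocyte sum, 86228, and without it the difference was -0.18. The part of these cells was not tested.

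**Figure D3:**
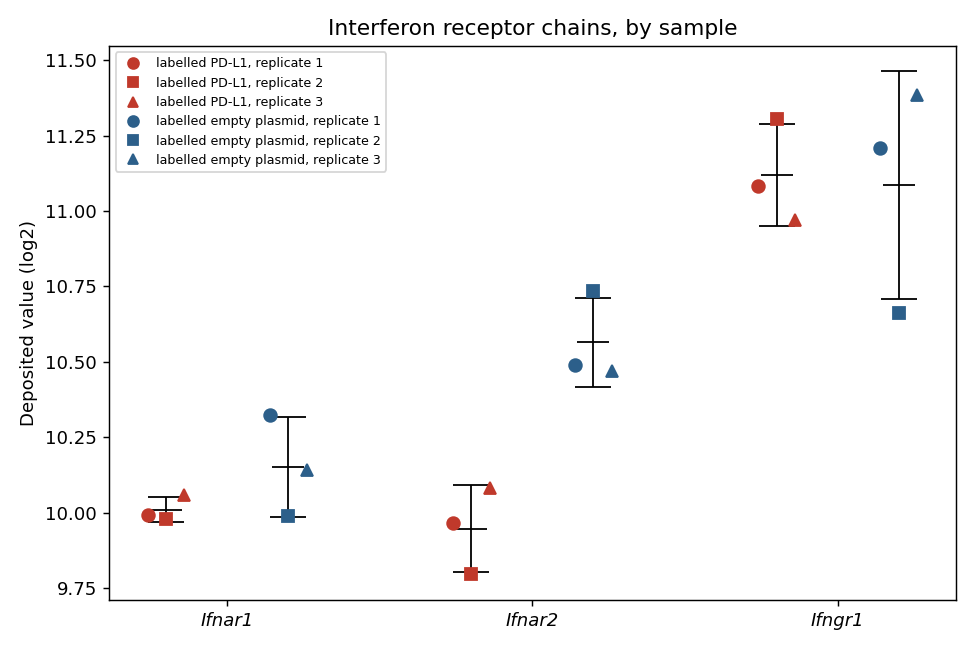
Deposited log2 values of the 3 receptor chains in the 6 samples, with group means and SD (black, n = 3). Ifnar2 is the chain whose groups do not overlap, 9.79 to 10.08 against 10.47 to 10.73.

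For each receptor chain, the 2 tested genes with the most similar profile were taken as those with the smallest root mean square difference over the 6 samples, after each gene was centred on its own mean. For Ifnar2 they were Stat2, a STAT factor of type I interferon signalling, at 0.115 and Ifih1, an RNA sensor, at 0.131, where the median over 540 genes was 0.557. Stat2 stood at 8.26, 8.15 and 8.33 in PD-L1-labelled tumors 1 to 3 and at 9.08, 9.17 and 8.76 in the others, without overlap, and Ifih1 differed by -0.54 ± 0.29 (log2, SE, n = 3 per group). Both were picked for likeness to Ifnar2 over these same samples, so that they follow its group difference is no separate result. For Ifnar1 they were the chemokine receptor gene Cxcr2 at 0.0963 and the transcription factor gene Creb1 at 0.115 (median 0.464). Cxcr2 was close to the background limit, at 4.76 to 4.96. For Ifngr1 they were Csf2rb, the shared beta chain of GM-CSF, IL-3 and IL-5 receptors, at 0.0784 and Csf1r, the macrophage growth factor receptor, at 0.123 (median 0.501).

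The genes that switch interferons on were read as a list of 18 names, of which 17 were tested. Of these 13 were lower and 4 higher in the group labelled PD-L1. The median of their log2 differences was -0.18, beside -0.12 over all 541 genes, of which 324 were lower. At an unadjusted p under 0.05 there were 3 lower and 1 higher, and 0 passed after adjustment. The 2 with the smallest p were Ddx58, for the RNA sensor RIG-I, at -0.73 ± 0.23, and Irf7, the factor that drives alpha interferon genes, at -0.89 ± 0.32 (log2, SE, n = 3 per group; adjusted p = 0.256 and 0.272, limma). Irf7 stood at 5.98, 6.35 and 6.65 in PD-L1-labelled tumors 1 to 3 and at 7.02, 7.54 and 7.11 in the others. The group with the higher Ifna1 values was the group with the lower Irf7 values, with no overlap in either. Groups without overlap were found for 18.8% of all 750 genes, and neither gene passed. A link between Irf7 and Ifna1 was not tested.

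The lists of genes that act after the receptors are read against all 541 tested genes, of which 324 were lower, 92 (17%) had an unadjusted p under 0.05 and 0 passed. The hepatocyte shift described beside Ifnar2 ran between the same groups, and its part in these lists was not tested. The lists share genes, so they are not separate readings. Isg15 and Usp18 count as negative regulators and as type I targets, and Socs1 as a negative regulator and as an interferon gamma target. Irf7, read above among the inducers, is also a type I target. Of 6 tested genes of receptor signalling 5 were lower (median -0.51), with Stat2 at -0.76 ± 0.24 (log2, SE, n = 3 per group; adjusted p = 0.256, limma). Without labelled PD-L1 replicate 1 the median was -0.71. Of 5 negative regulators 4 were lower (median -0.32, and -0.17 to -0.20 without PD-L1-labelled tumor 3, empty-plasmid tumor 1 or PD-L1-labelled tumor 2), with the factor gene Irf2 at -0.32 ± 0.24 and Usp18, which blocks signalling at IFNAR2, at -0.47 ± 0.41. Of 18 tested type I interferon targets 13 were lower (median -0.32), among them Oas2, which senses double-stranded RNA, at -1.29 ± 0.35. Leaving out any 1 of the 6 samples moved the type I median, to between -0.71, when PD-L1-labelled tumor 3 was omitted, and -0.12, when empty-plasmid tumor 2 was. Of 16 tested interferon gamma targets 15 were lower (median -0.45, and -0.27 without empty-plasmid tumor 1), with the chemokine gene Cxcl9 at -2.35 ± 0.84 and the immunoproteasome gene Psmb9 at -0.52 ± 0.28. In each of these 4 lists 0 genes passed after adjustment, and the numbers with an unadjusted p under 0.05 were 2, 0, 4 and 1 in the order given. The 4 type I targets were split, 2 lower and 2 higher, while those of the other lists were lower. The 2 higher were Ifitm2 at 0.60 ± 0.25 and Isg20 at 0.63 ± 0.26, both without overlap.

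The genes that induce interferon gamma were mostly as faint as Ifng itself. Of 14 genes 9 were under the background limit, among them both subunits of IL-12, Il12a and Il12b, and Tbx21, the T-bet factor of interferon gamma producing cells, at 2.67 to 3.36 over all samples. Of the 5 tested 4 were higher in the group labelled PD-L1 (median 0.17) and 0 had an unadjusted p under 0.05. This median was 0.075 without PD-L1-labelled tumor 1, 0.27 without PD-L1-labelled tumor 3 and 0.38 without empty-plasmid tumor 2. Il15, a growth factor of natural killer cells, was at 0.53 ± 0.29, and Il18rap, a chain of the IL-18 receptor, at 0.48 ± 0.27 (log2, SE, n = 3 per group). Of the class II cytokine receptors other than the members, 1 gene was tested, the IL-10 receptor chain gene Il10ra, at -0.40 ± 0.39. It was at -0.78 without empty-plasmid tumor 2, -0.20 without tumor 1 and -0.21 without tumor 3 of that group.

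**Figure D4:**
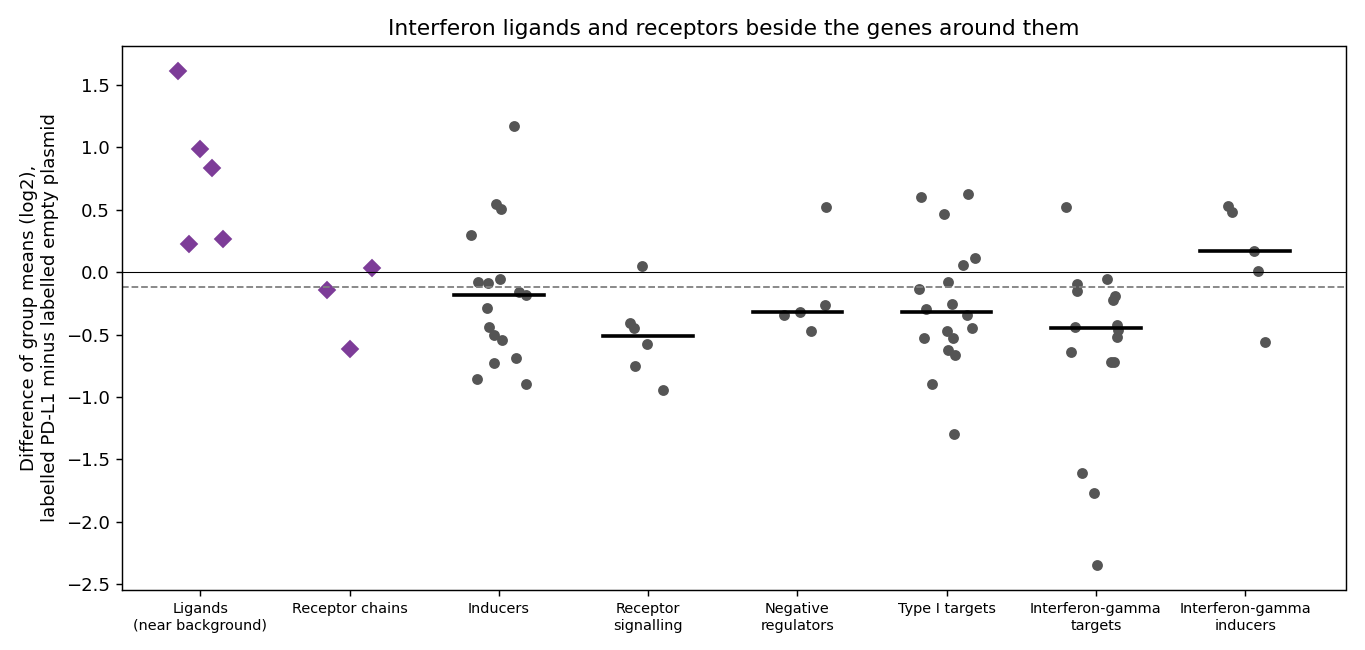
Differences of group means on the log2 scale, labelled PD-L1 minus labelled empty plasmid, for the 5 ligands and 3 receptor chains (diamonds) and for the tested genes of 6 lists (dots, with the list median as a bar). The dashed line is the median of all 541 tested genes, -0.12, which do not include the ligands. The ligands, near background, lie above 0, from 0.23 to 1.62, and 15 of 16 interferon gamma targets lie below 0.

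Ifnl2, a type III interferon named after its values were seen, was also near background, with overlapping groups. Its counts were 25, 16 and 31 in PD-L1-labelled tumors 1 to 3 and 24, 16 and 22 in empty-plasmid tumors 1 to 3 (log2 difference 0.39; exact permutation p = 0.3). Tumors 1 and 3 of both groups exceeded their highest negative controls. Only PD-L1-labelled tumor 3, at 4.70 against 4.42, reached its own background limit.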

How the data were processed

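Total RNA of tumor tissue was read with a NanoString nCounter codeset, according to the labels' protocols, and the 6 samples were grouped by title. The deposited values are log2 values that the authors had scaled per sample. The basis, the software and a genome build are not given in the sources used here. The linear values equal a whole number times a sample factor (0.519 to 1.11) plus 0.158, which returned whole counts for 100% of values within 0.02. The second deposited table holds the same values for 770 genes. The comparison used limma 3.58.1 in R 4.3.3 with a trended prior, a design holding group alone, and p-values adjusted by Benjamini-Hochberg over 541 genes, and two-sided exact permutation tests for single values. The fit was tested on simulated data. The members, the lists and the naming rule (all members, 2 genes per list by p, 2 most similar genes per receptor chain) were chosen with earlier results of these data known. The result of 1 gene that this rule names is not reported here. The planned Ifngr2 to Ifngr1 ratio was not analysed here. Accessions of all 8 members matched RefSeq's table (GRCm38.p6). Alternatives covered scaling, trend, background limit, background subtraction, an added constant, voom, the replicate number as a block, and omission of each sample in turn. Scaling to the positive controls, unscaled counts and a linear limit were added after seeing the data. Alignments used Biopython 1.88 and figures matplotlib 3.10.9.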

Additional observations from a re-analysis of the deposited data

How the results depend on the processing

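No member passed the adjusted threshold under any of the alternatives in which it was tested. The 5 ligands were tested only without a background limit. Elsewhere they had at most an exact p, which cannot fall under 0.1, so there they could not pass. The count of genes passing was 1 (F13a1) with the reference genes made equal, and 29 with the positive controls made equal, a setting added later in which limma's prior degrees of freedom were 43.3 against 2.59. In the other alternatives it was 0, the lowest adjusted p with a sample left out being 0.108. Ifna1, Ifna4, Ifnb1 and Ifnar2 kept their direction in every alternative run. Omitting a sample could not have turned Ifna1, Ifna4 or Ifnar2, whose groups did not overlap. Ifnar1 turned to 0.014 with sample medians equal. With the positive controls equal Ifna2 turned to -0.20, Ifng to -0.16 and Ifngr1 to -0.39, and Ifngr1 also to -0.037 with voom and -0.18 with unscaled counts. With a sample left out Ifna2 ran from -0.077 to 0.58 and Ifngr1 from -0.18 to 0.18. The median of the interferon inducers was -0.025 with sample medians equal and -0.28 to -0.16 with a sample left out, that of receptor signalling -0.71 to -0.41 and that of the type I targets -0.71 to -0.12. With sample medians equal the interferon gamma targets were at -0.29, the negative regulators at -0.16 and the interferon gamma inducers at 0.32. The causes were not tested. The same replicate numbers do not pair the samples, as deviations of same-numbered samples correlated at 0.27, -0.20 and -0.13. With the replicate block limma called 0 genes, and Ifnar2 had an adjusted p of 0.394. The members were above background in 20 readings by the own limit, 20 by the pooled limit and 24 by the highest negative control. With voom the 5 ligands have no value, as it was fitted on the 541 genes. Counts under about the highest negative control, 17 to 25, cannot order the samples of a ligand.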
